A study of Mus musculus with 7 samples.

Results

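The 7 genes described here, Gabra2, Gabra3, Gabra4, Gabra5, Gabrb1, Gabrb2 and Gabrd, encode subunits of the GABA-A receptor, and they were taken by name from the 19614 genes of the count tables. GABA-A receptors are chloride channels opened by GABA, the main inhibitory transmitter of the cortex, and each channel is assembled from subunits of several families. Alpha and beta subunits form the GABA binding sites. Receptors with alpha2 or alpha3 are known mainly at synapses, while receptors that pair alpha4 with delta, and many with alpha5, lie outside synapses and carry the steady tonic current.

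The data are single-cell RNA counts from 2 areas of B6129SF1/J mice at P30, the ventromedial prefrontal cortex (PFC) and, for comparison, motor cortex (MC), kept on a 12 h light and 12 h dark cycle. All mice carry Opn4-Cre on a single allele, a Cre driven by the melanopsin gene of the retina. In CTRL mice (Opn4-Cre/+; Brn3b-+/+) the intrinsically photosensitive ganglion cells of the retina are intact. In DTA mice (Opn4-Cre/+; Brn3b-zDTA/+) a diphtheria toxin gene at the Brn3b locus ablates those of these cells that express Brn3b. There were 2 PFC CTRL, 3 PFC DTA, 1 MC CTRL and 1 MC DTA libraries. The labels do not say whether a library is 1 animal or several, so p-values measure only the spread between these libraries, which may be technical.

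Levels are UMIs (counted RNA molecules) of a gene per 1000000 UMIs of a cell type (CPM), summed within a library, and the values below are means ± SD over libraries unless single libraries are named. A UMI is read at the 3' end, so CPM carries no term for gene length, and the order of levels is given within each gene only. Cells were grouped into 11 neuron subtypes and 8 glial and vascular types from marker genes, with the members and their related genes left out of the clustering, and each name stands for cells like that type. IT, ET, NP and CT stand for the intratelencephalic, extratelencephalic, near-projecting and corticothalamic classes of excitatory neuron.

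The libraries held 6180059 to 30972905 UMIs. The share of cells left unnamed was between 8.155% and 18.26% in 6 libraries and 49.68% in PFC DTA replicate 3. Median depth per excitatory neuron ran from 4013.5 UMIs in PFC CTRL replicate 2 to 16943.5 in MC DTA. Cell barcodes shared by a pair of libraries numbered 7 to 92, close to the 6.231 to 83.46 given by chance.

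Gabra2 encodes alpha2, a subunit of synapses and of the axon initial segment. It had its highest level in layer 2/3 IT neurons, at 215.7 ± 31.4 CPM (SD, n = 7), with the lowest library at 168.9, the median at 215.6 and the highest at 249.2. Layer 5 ET neurons followed at 177.8 ± 42.2 CPM (n = 6), then Sncg interneurons at 157.4 ± 55.8 (n = 5) and layer 4/5 IT neurons at 112.3 ± 11.4 (n = 7). The level was 34.0 ± 6.35 CPM in layer 6 CT neurons, 23.3 ± 15.5 in layer 5 NP neurons and 13.1 ± 5.48 in Pvalb interneurons. Of the steps between neighbours in this order, 2 exceeded the SD of the paired log2 difference: layer 2/3 IT over layer 5 ET, in 6 of 6 libraries, and layer 6 IT (83.2 CPM) over Vip interneurons (58.2 CPM), in 6 of 7.

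Gabra3 encodes alpha3, known from deep layers and several interneuron classes. Layer 6 IT neurons held 123.2 ± 30.1 CPM, with libraries from 66.7 through a median of 126.4 to 159.3. Sst interneurons, not different beyond the spread, held 101.0 ± 18.2 CPM and layer 5 NP neurons 95.5 ± 17.9. The lowest neuron subtypes were Vip interneurons at 33.7 ± 16.7 CPM and Lamp5 interneurons at 24.1 ± 10.2. The level of Gabra3 was the most even of the alpha genes over excitatory subtypes, from 66.9 CPM in layer 5 ET to that of layer 6 IT, and only the step from layer 5 ET to Sncg interneurons exceeded its spread.

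Gabra4 encodes alpha4, the usual partner of delta in the forebrain. Its highest levels were 176.3 ± 27.5 CPM in layer 2/3 IT neurons, 168.0 ± 36.2 in Lamp5 interneurons and 148.5 ± 22.2 in Pvalb interneurons. These neighbours did not differ beyond their spread. Sst interneurons held 58.4 ± 19.6 CPM, Sncg interneurons 55.3 ± 23.5 and Vip interneurons 41.6 ± 18.9. Gabra4 libraries ran from 148.2 through 177.0 to 218.4 CPM in layer 2/3 IT and from 20.1 through 41.0 to 76.2 in Vip, so these subtypes did not overlap.

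Gabra5 encodes alpha5, best known from the hippocampus and deep cortex. Its level was 102.6 ± 37.5 CPM in Lamp5 interneurons, with libraries from 43.2 through 91.7 to 149.8. Layer 5 ET neurons, which did not differ from Lamp5 beyond the spread, held 98.0 ± 28.8 CPM, layer 6 CT neurons 85.9 ± 26.6 and layer 6 IT neurons 71.3 ± 13.04. The other 4 interneuron subtypes held 12.2 to 17.1 CPM, and in every library Lamp5 interneurons lay above all of them.

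Gabrb1 encodes beta1, and astrocytes had its highest mean level. They held 278.8 ± 20.9 CPM, with libraries from 252.4 through 276.3 to 311.2. Layer 5 NP neurons held 260.2 ± 45.0 CPM and were below astrocytes in only 4 of 7 libraries, so these neighbours did not differ beyond their spread. The layer 5 NP level exceeded that of the next type, layer 2/3 IT at 183.5 ± 18.1, in 6 of 7 libraries and by more than the spread. The other 4 excitatory subtypes lay between 160.2 and 183.2 CPM. Interneurons ran from 113.6 ± 38.9 CPM in Sncg to 58.4 ± 17.7 in Pvalb.

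Gabrb2 encodes beta2, a subunit of many synaptic receptors. It was listed at low levels in these libraries. The highest type mean was 12.3 ± 11.5 CPM in Lamp5 interneurons, where libraries ran from 0 to 29.95, followed by 9.24 ± 5.12 in layer 5 ET neurons. No step in its order of levels exceeded the spread. Pericytes and vascular smooth muscle cells had 0 UMIs in all 7 libraries.

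Gabrd encodes delta, which takes the place of gamma in receptors outside synapses. Pvalb interneurons held 108.9 ± 26.9 CPM, with libraries from 76.3 through 97.1 to 151.0. They exceeded layer 2/3 IT neurons, at 83.7 ± 14.7, in 6 of 7 libraries and by more than the spread. Lamp5 interneurons held 75.3 ± 21.8 CPM and layer 6 IT neurons 51.6 ± 19.6. Sst interneurons were at 19.8 ± 16.5 CPM, layer 5 NP neurons at 11.6 ± 9.496 and Vip interneurons at 5.65 ± 7.79. The Vip value lay at the 5.61 CPM found in microglia, which are not known to use the gene.

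**Figure D1:**
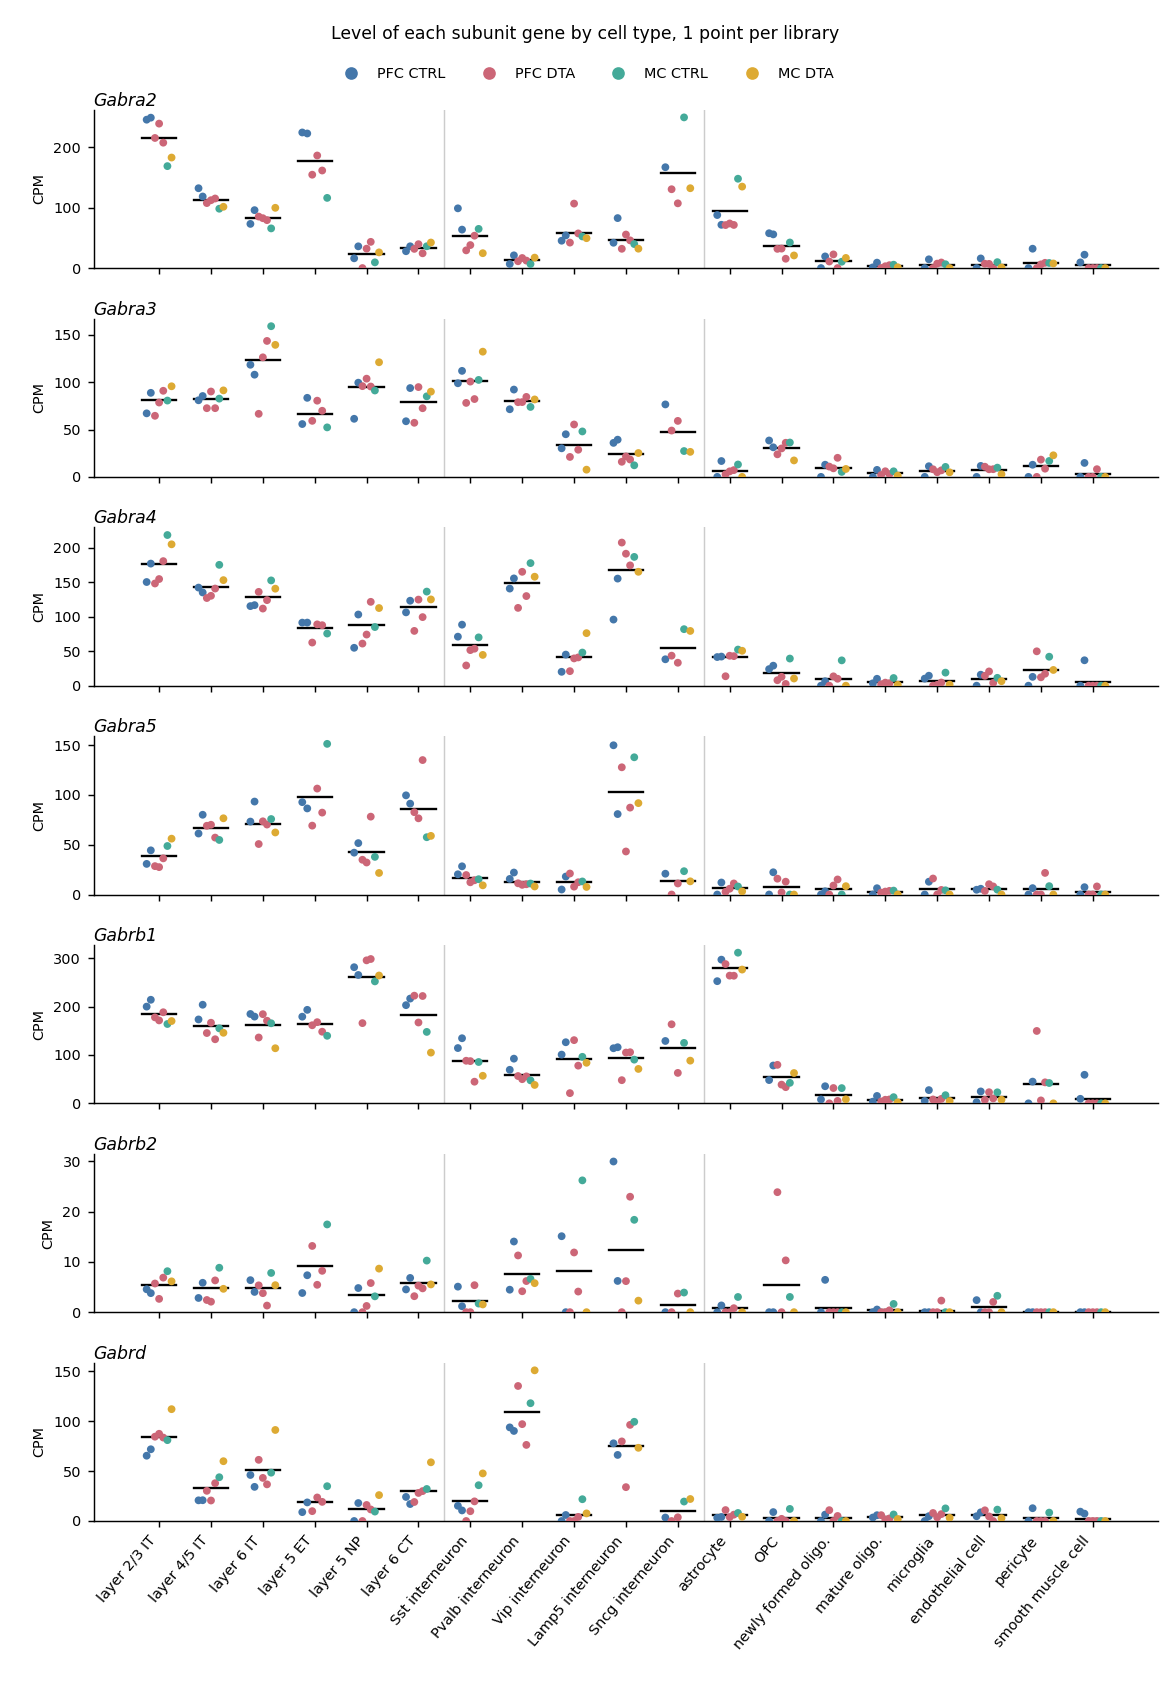
Level of each gene in CPM (vertical axes, linear, each from 0) in 19 cell types (horizontal axis), with 1 point per library coloured by area and genotype and a bar at the mean. The highest mean of Gabrd is in Pvalb interneurons at 108.9 CPM. Those of Gabrb1 (astrocytes, 278.8 CPM) and Gabra5 (Lamp5 interneurons, 102.6 CPM) are not separated from the next type beyond the spread, while the Gabrb2 panel stays low throughout.

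Between the main neuron divisions, 5 of the 7 genes were higher in excitatory than in inhibitory neurons and 1 was lower (edgeR quasi-likelihood test with library as a block, Benjamini-Hochberg adjusted p under 0.05). Of all genes tested in this comparison 62.6% passed, so a call by itself says little about these genes, and the sizes are given. Gabra2 was at 127.6 ± 16.7 CPM in excitatory and 51.2 ± 14.02 in inhibitory neurons, a log2 fold change of 1.296 (SE 0.11, edgeR adjusted p = 7.3e-07). Gabra5 was at 70.8 and 30.5 CPM (1.29, SE 0.18, edgeR adjusted p = 0.000156), and Gabrb1 at 177.2 and 83.4 CPM (1.11, SE 0.085, edgeR adjusted p = 1.7e-08). Smaller differences were found for Gabra4, at 138.8 and 102.4 CPM (0.48, SE 0.066), and Gabra3, at 84.9 and 66.8 CPM (0.39, SE 0.070). Each of these 5 was higher in excitatory neurons in 7 of 7 libraries.

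Gabrd went the other way, with 49.7 CPM in excitatory and 59.4 in inhibitory neurons (log2 fold change -0.23, SE 0.083, edgeR adjusted p = 0.0216), and excitatory neurons were higher in 1 of 7 libraries. That call was lost without PFC CTRL replicate 1, PFC CTRL replicate 2 or MC CTRL, and with no filter on low counts, where the log2 fold change lay between -0.20 and -0.17. Gabrb2 did not pass, at 5.29 and 6.08 CPM (log2 fold change -0.20, 95% interval -0.62 to 0.23).

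Related genes were called in both directions, as were all genes tested, of which 62.6% passed, 3617 higher and 3607 lower in excitatory neurons. The counts by themselves therefore say little about these lists. Of the other GABA-A subunit genes, 5 of 12 were tested, of which 1 was higher in excitatory neurons and 3 were lower, with a median log2 fold change of -0.47 beside -0.00 over all genes. Gabrg3, which encodes a gamma subunit, was lower at 36.3 against 65.9 CPM (-0.83, SE 0.092). Of 15 partner and chloride transporter genes, 2 were higher and 4 lower. Among them Shisa7, an auxiliary subunit, was higher by 0.92 (SE 0.095), while Rdx, which encodes radixin, an anchor of alpha5 receptors, fell by 0.73 on the log2 scale. Of 4 tested GABA-B receptor genes 1 was higher and 2 were lower.

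Each subtype was next set against the log-scale mean of the other subtypes of its division, so a fold change here can differ from a ratio of mean CPM. The members passed in 43 of 72 such contrasts, 21 higher and 22 lower (edgeR quasi-likelihood test, Benjamini-Hochberg). Over all genes 39.6% of the excitatory and 32.3% of the inhibitory contrasts passed. In excitatory neurons Gabra2 was higher in layer 2/3 IT (log2 fold change 1.66, SE 0.070), layer 5 ET (1.34, SE 0.091) and layer 4/5 IT (0.53, SE 0.077), and lower in layer 5 NP (-1.98, SE 0.15) and layer 6 CT (-1.55, SE 0.11). Gabra5 ran differently, lower in layer 2/3 IT (-0.80, SE 0.14) and layer 5 NP (-0.73, SE 0.23) and higher in layer 5 ET (0.67, SE 0.16) and layer 6 CT (0.51, SE 0.15). Gabra3 was higher in layer 6 IT (0.66, SE 0.071). Gabrb1 was higher in layer 5 NP (0.58, SE 0.083), the subtype in which Gabra2, Gabra4, Gabra5 and Gabrd were all lower. Gabrb2 passed in layer 5 ET (0.79, SE 0.28), where it was higher in 6 of 6 libraries.

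In inhibitory neurons the largest folds were those of Gabra5 in Lamp5 (2.75, SE 0.18) and Gabrd in Pvalb (2.57, SE 0.18), each higher in 7 of 7 libraries. Gabra2 separated Sncg (2.05, SE 0.20, higher in 5 of 5 libraries) from Pvalb interneurons (-2.33, SE 0.23, higher in 0 of 7). Gabra3 was higher in Sst (1.29, SE 0.13) and Pvalb (0.82, SE 0.14) and lower in Lamp5 (-1.37, SE 0.21) and Vip (-0.64, SE 0.22). Sst interneurons passed for 2 members: Gabra3, above, and Gabra4, which was lower (-0.51, SE 0.14). Gabrb2 was not tested in inhibitory subtypes because its counts were too low.

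**Figure D2:**
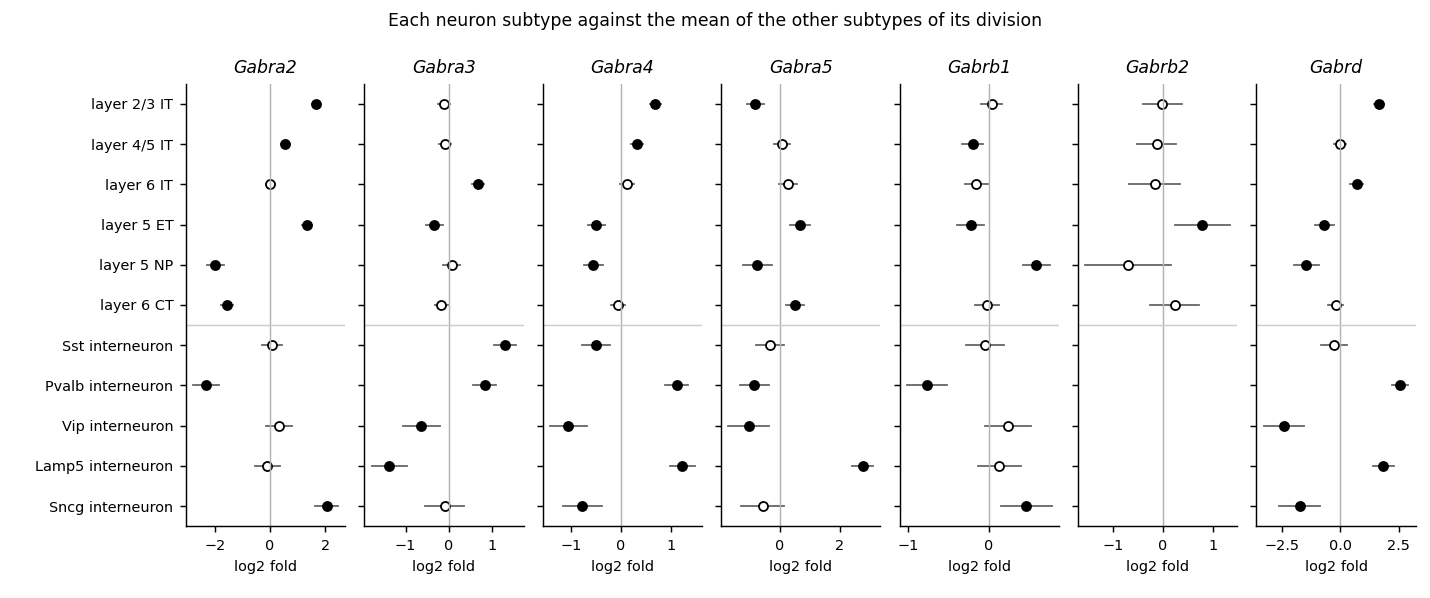
Log2 fold change of each neuron subtype (rows) against the log-scale mean of the other subtypes of its division, 1 panel per gene, with 95% intervals as lines and filled points for an adjusted p under 0.05. Gabra2 runs from 2.05 in Sncg to -2.33 in Pvalb, and Gabra4 and Gabrd are both higher in layer 2/3 IT, Pvalb and Lamp5 and both lower in layer 5 ET, layer 5 NP, Vip and Sncg.

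Gabra4 and Gabrd, whose proteins combine in extrasynaptic receptors, had similar patterns over the 11 neuron subtypes. Both were higher than the rest of their division in layer 2/3 IT (Gabra4 by 0.69, SE 0.058, and Gabrd by 1.65, SE 0.11), Pvalb (1.12, SE 0.11, and 2.57, SE 0.18) and Lamp5 (1.23, SE 0.13, and 1.85, SE 0.22). Both were lower in layer 5 ET (-0.50 and -0.69), layer 5 NP (-0.56 and -1.46), Vip (-1.06 and -2.40) and Sncg (-0.78 and -1.74). Pearson's r of their mean log2(CPM + 1) over 11 subtypes was 0.93 (Spearman's rho 0.94), and r lay between 0.63 and 0.91 in single libraries. Within the 6 excitatory subtypes r was 0.88 (0.70 to 0.93 in single libraries), and within the 5 inhibitory subtypes it was 0.98 (0.54 to 0.98). In those 5 subtypes Gabra2 and Gabrb1 also reached 0.97 (-0.45 to 0.99 in single libraries). How many pairs of all genes reach such an r was not counted. Subtypes share their libraries and differ in depth, so these are descriptions with no test. Layer 4/5 IT was higher for Gabra4 (0.32, SE 0.059) and layer 6 IT for Gabrd (0.72, SE 0.14), in each case without a call for the other gene.

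**Figure D3:**
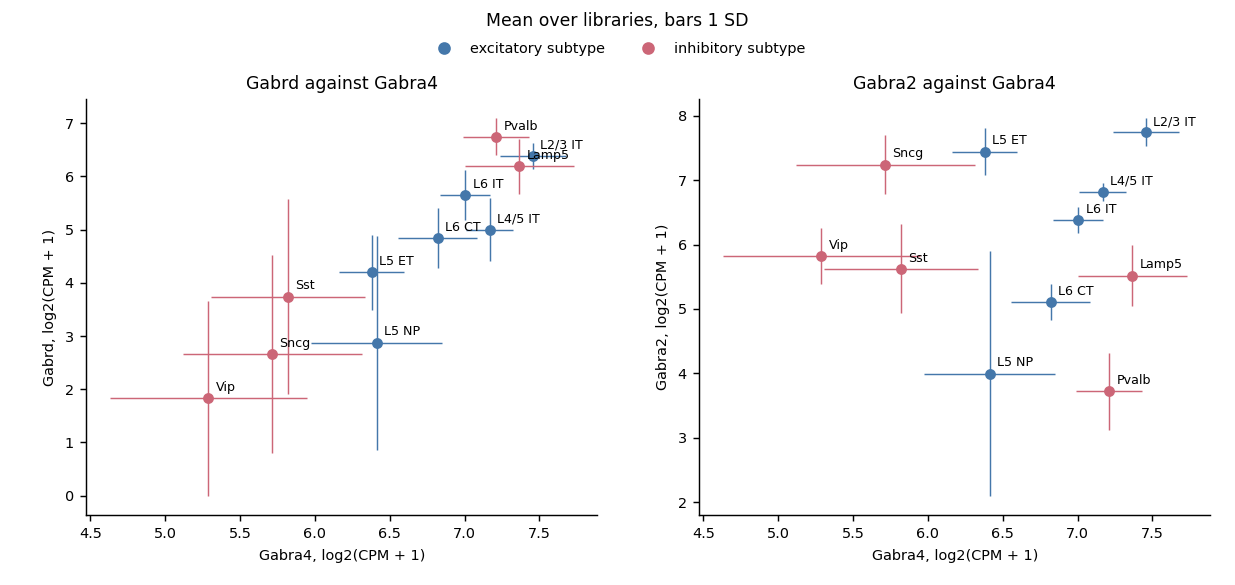
Mean log2(CPM + 1) over libraries of Gabrd (left) and Gabra2 (right) against Gabra4 in each of 11 neuron subtypes, with bars of 1 SD. The left points lie along a rising line (r = 0.93). The right points do not over all 11 subtypes (r = -0.04), with r = 0.51 in excitatory and -0.63 in inhibitory subtypes.

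Gabra2 and Gabra4 are neighbours on chromosome 5, and over the 11 subtypes together their r was -0.04 (rho = -0.05). The divisions went opposite ways. Within the 6 excitatory subtypes r was 0.51 (0.30 to 0.94 in single libraries). Within the 5 inhibitory subtypes it was -0.63 (-0.70 to -0.26). In the GENCODE annotation of GRCm38, Gabra2 lies at chr5:70957597-71095849 and Gabra4 at chr5:71569749-71658308, both on the minus strand and protein coding. Gabrb1 lies next to them at chr5:71658113-72149037 on the plus strand, and its 5' end overlaps that of Gabra4, while the 3' ends that are counted lie apart. The r of Gabra4 and Gabrb1 over the 11 subtypes was 0.22. Gabrd lies apart, at chr4:155384980-155398112 (minus strand), as do Gabra5 at chr7:57407672-57510059 (minus), Gabrb2 at chr11:42419757-42629028 (plus) and Gabra3 at chrX:72432681-72656848 (minus).

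The sequences before the starts of these neighbours are shown because these 2 genes were called in opposite directions in layer 5 ET neurons and in Pvalb and Sncg interneurons. Whether the sequences bear on those patterns was not tested. They come from RefSeq on GRCm38.p6, which held 6 of the 7 members, and read 5' to 3' on the strand of the gene. The Gabra2 stretch is chr5:71095850-71096099, bases 250 to 1 before the start, and the Gabra4 stretch is chr5:71658364-71658558, bases 250 to 56 before the start. Capitals mark matches, on either strand, to the GC box (GGGCGG) and the CCAAT box (CCAAT).
Gabra2: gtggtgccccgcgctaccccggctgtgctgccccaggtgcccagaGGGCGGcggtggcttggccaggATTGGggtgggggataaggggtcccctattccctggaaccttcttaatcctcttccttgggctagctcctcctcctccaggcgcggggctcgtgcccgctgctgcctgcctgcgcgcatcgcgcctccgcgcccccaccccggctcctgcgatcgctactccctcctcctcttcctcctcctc
Gabra4: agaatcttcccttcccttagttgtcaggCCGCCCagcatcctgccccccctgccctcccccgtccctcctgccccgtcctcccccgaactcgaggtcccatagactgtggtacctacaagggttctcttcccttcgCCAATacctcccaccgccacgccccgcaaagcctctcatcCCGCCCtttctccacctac
The Gabra2 stretch had 70% GC and 18 CpG sites, where the median GC over all promoters in this window was 52.4%. It held 1 GC box, as did at least 1 site in 32.74% of 32851 promoters, and 1 CCAAT box (33.85%). The Gabra4 stretch had 63.59% GC and 10 CpG sites beside a median of 51.28%, with 2 GC boxes (23.78% of promoters hold 1 or more) and 1 CCAAT box (27.58%). Neither stretch held TATAA (22.78% and 17.53% of promoters in the respective windows) or the CRE letters TGACGT (6.469% and 3.954%), searched on both strands. The Gabra4 stretch leaves out the bases nearest its start, which lie in exons of Gabrb1. Those bases were not searched, so the absence of TATAA there is not known. No match shared bases with another, and a match describes letters only.

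The genes whose mean log2(CPM + 1) over 19 cell types was most like each member, among 11406 genes, are given as a description. For Gabra2 they included Uggt2 (r = 0.92) and Rragd (0.90). For Gabra3 they included Mapk8ip2 (0.97) and Add2 (0.96). Gabra4 ranked with Trim37, Atp2b2 and Dlg3 (each 0.96), and Gabra5 with Pgr (0.95), Camkv (0.95) and Ids (0.94). Gabrb1 ranked with Trim9, Prelid3a and Gpm6a (each 0.96), Gabrb2 with Kcnh7 (0.95), Mfsd4a (0.94) and Adcy1 (0.93), and Gabrd with Hapln4 (0.90), Carm1 (0.88) and Kcns1 (0.88). The 19 types include neurons and other cells and share their libraries.

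Against excitatory neurons, the members were lower in glial and vascular types in 46 of 48 contrasts and higher in 1 (edgeR quasi-likelihood test, Benjamini-Hochberg), where 68.9% of all such contrasts passed. The 1 higher contrast was Gabrb1 in astrocytes, at 278.8 against 177.2 CPM (log2 fold change 0.85, SE 0.16, edgeR adjusted p = 3.8e-06, higher in 7 of 7 libraries). The contrast that did not pass was Gabra2 in astrocytes, at 94.2 ± 33.1 against 127.6 ± 16.7 CPM (-0.26, 95% interval -0.63 to 0.10). Gabra4 in astrocytes was lower, at 41.0 ± 12.8 CPM (-1.56, SE 0.19).

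Free RNA can give UMIs of a neuronal gene in any cell, so microglia, which are immune cells, are set beside the other types. They held 4.2% to 11.3% of the excitatory level of each member, with 87.2 to 377.3 CPM of summed excitatory markers. Astrocytes lay in or near that range for Gabra3 (7.7%), Gabra5 (8.7%) and Gabrd (11.7%), which were read as background there. They lay well above it for Gabra2 (73.8%), Gabra4 (29.5%) and Gabrb1 (157.3%). Oligodendrocyte precursors held 54.7 CPM of Gabrb1, 36.6 of Gabra2 and 30.5 of Gabra3. Pericytes held 40.8 CPM of Gabrb1, from 26 UMIs over all libraries, with single libraries from 0 to 149.5. The highest value came from PFC DTA replicate 1, whose 17 pericytes held 20064 UMIs over all genes. The pericyte level therefore rests on very few counts.

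Between areas, the members passed in 7 of 89 contrasts, all 7 higher in the MC (edgeR quasi-likelihood test with genotype as a term, Benjamini-Hochberg), and 4 of the 7 were Gabrd. The excitatory and inhibitory sums include the cells of their subtypes, so these contrasts share cells, as do those between genotypes below. They are not separate lines of support. Over all genes and cell types 2.15% of the area contrasts passed. The areas did not overlap in any of the 7, as they did not in 18.3% of all area contrasts. The 7 were picked by a test on the same values, so this adds no support. The MC has 2 libraries, and the count of calls was 0 without MC DTA and 1 without MC CTRL, the excitatory Gabrd call. It was 4 without PFC CTRL replicate 2, 4 without PFC DTA replicate 1 and 4 with DESeq2. The dissection of the MC is not described separately in the labels.

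Gabrd in excitatory neurons was at 33.1 and 38.7 CPM in the PFC CTRL libraries, 45.1, 41.9 and 51.1 in the PFC DTA libraries, 55.0 in MC CTRL and 83.1 for MC DTA. Both MC libraries were above all PFC libraries, and MC DTA was the highest (69.1 against 42.0 CPM, log2 fold change 0.76, SE 0.12, edgeR adjusted p = 0.0029, where 6.35% of all genes passed). Without MC DTA the fold change was 0.63. The log2 ratio of MC to PFC was 1.15 among the 3 deep libraries and 0.29 among the 4 shallow ones, split at 8000 UMIs per excitatory neuron. Each set holds 1 MC library, MC DTA in the deep and MC CTRL in the shallow set. Depth and MC genotype therefore cannot be told apart in these ratios, here or below. The layer 2/3 IT share of excitatory cells was 35.9% and 35.0% in the MC and 20.5% to 35.0% in the PFC, and its part in the value was not tested.

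In inhibitory neurons Gabrd was at 47.4 and 48.9 CPM in the PFC CTRL libraries, 56.4, 50.4 and 47.4 in the PFC DTA libraries, 78.1 in MC CTRL and 87.0 for MC DTA. The groups stood well apart (0.75, SE 0.15, edgeR adjusted p = 0.0102, with 2.22% of all genes called). The ratio was 0.83 in the deep and 0.62 in the shallow libraries. Summed Pvalb-type markers in inhibitory neurons were 2778.8 to 3123.4 CPM in the MC and 1634.8 to 1966.3 in the PFC. Pvalb interneurons, the richest in Gabrd, made up 22.4% and 25.4% of inhibitory cells in the MC and 17.3% to 23.7% in the PFC. Lamp5 interneurons, also rich in Gabrd, made up 28.5% and 21.3% in the MC and 14.2% to 21.4% in the PFC. The part of these markers and shares in the value was not tested. Within Pvalb interneurons Gabrd was at 134.6 against 98.6 CPM (0.50, 95% interval 0.10 to 0.91, edgeR adjusted p = 0.18), which did not pass.

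Gabrd in Sst interneurons was at 15.2 and 10.6 CPM in the PFC CTRL libraries, 0, 9.83 and 19.7 in the PFC DTA libraries, 35.9 in MC CTRL and 47.7 for MC DTA, from 0 to 31 UMIs per library. The difference was 1.73 (SE 0.37, edgeR adjusted p = 0.0090, with 1.08% of all genes called). The log2 ratio was 1.93 in the deep and 1.83 in the shallow libraries, each set with 1 MC library. DESeq2 did not call it (1.74, adjusted p = 0.178). The MC Sst cells also had more summed Pvalb-type markers, at 601.3 and 861.9 CPM against 234.6 to 398.4 in the PFC, and fewer summed Sst-type markers, at 13030 to 14241 against 18173 to 24252. The part of these in the result was not tested. The MC mean of Gabrd was 36.8 against 20.3 CPM in one Sst cluster, where a PFC library reached 52.5, and 43.0 against 5.35 CPM in the other.

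Gabrd in layer 4/5 IT neurons was at 20.7 and 20.8 CPM in the PFC CTRL libraries, 30.3, 20.6 and 37.9 in the PFC DTA libraries, 43.9 in MC CTRL and 59.95 for MC DTA (1.08, SE 0.20, edgeR adjusted p = 0.0043, with 5.49% of all genes called). The log2 ratio was 1.54 in the deep and 0.56 in the shallow libraries, split by excitatory neurons as above. That split does not match the depth of this subtype. PFC DTA replicate 3, counted as shallow, had a median of 20657 UMIs per layer 4/5 IT cell. The deep PFC libraries had 16138 and 18144.5, and MC CTRL had 7139.5. These 2 ratios therefore do not separate depth here. A cluster led by Cartpt, Brinp3 and Rorb made up 47.5% to 53.7% of the layer 4/5 IT cells of the MC libraries and at most 16.1% in the 3 PFC libraries where it could be measured. That cluster held 83.3 CPM of Gabrd in the MC and 111.8 in the PFC, the highest of the 4 layer 4/5 clusters. In the other 3 the MC and PFC means were 45.8 and 26.7, 30.8 and 27.5, and 29.1 and 15.8 CPM. The areas therefore differ in which clusters make up this subtype, and the part of that in the value was not tested.

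Gabra4 in excitatory neurons was at 117.4 and 138.5 CPM in the PFC CTRL libraries, 113.6, 125.6 and 138.2 in the PFC DTA libraries, 173.2 in MC CTRL and 165.0 for MC DTA. The MC was higher by 0.43 (SE 0.11, edgeR adjusted p = 0.0470), with ratios of 0.44 and 0.41 in the deep and shallow libraries. The call was lost in 6 of 7 runs that left out a library and with clustering at a resolution of 2.0, while the fold change stayed between 0.39 and 0.47. In layer 2/3 IT neurons the difference was 0.38 (95% interval 0.09 to 0.66, edgeR adjusted p = 0.0969), which did not pass.

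Gabra5 in layer 2/3 IT neurons was at 30.7 and 44.3 CPM in the PFC CTRL libraries, 28.5, 27.5 and 36.3 in the PFC DTA libraries, 48.7 in MC CTRL and 56.1 for MC DTA. The MC was higher by 0.62 (SE 0.17, edgeR adjusted p = 0.0408), where 8.17% of all genes passed. In all 4 layer 2/3 clusters the MC mean was the higher, for example 48.4 against 30.8 CPM and 55.1 against 31.9. The fold change was 0.36 without MC DTA and 0.85 without MC CTRL, with no call in either. The call was also lost without PFC CTRL replicate 1, PFC DTA replicate 1 or PFC DTA replicate 2, and with DESeq2.

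Gabra2 in astrocytes was at 87.8 and 71.7 CPM in the PFC CTRL libraries, 71.2, 73.9 and 71.4 in the PFC DTA libraries, 148.0 in MC CTRL and 135.0 for MC DTA. The MC level was 141.5 against 75.2 CPM (0.91, SE 0.19, edgeR adjusted p = 0.0476), where 0.312% of all genes passed. Summed excitatory markers in astrocytes were 96.0 and 358.5 CPM in the MC and 167.2 to 462.9 in the PFC, and summed astrocyte markers 11043 to 13095 and 9687 to 12071. Their part in the result was not tested. The call was lost in 6 of 7 runs without 1 library, with DESeq2, with doublets kept and with clustering at a resolution of 2.0, while the fold change stayed between 0.83 and 0.99.

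**Figure D4:**
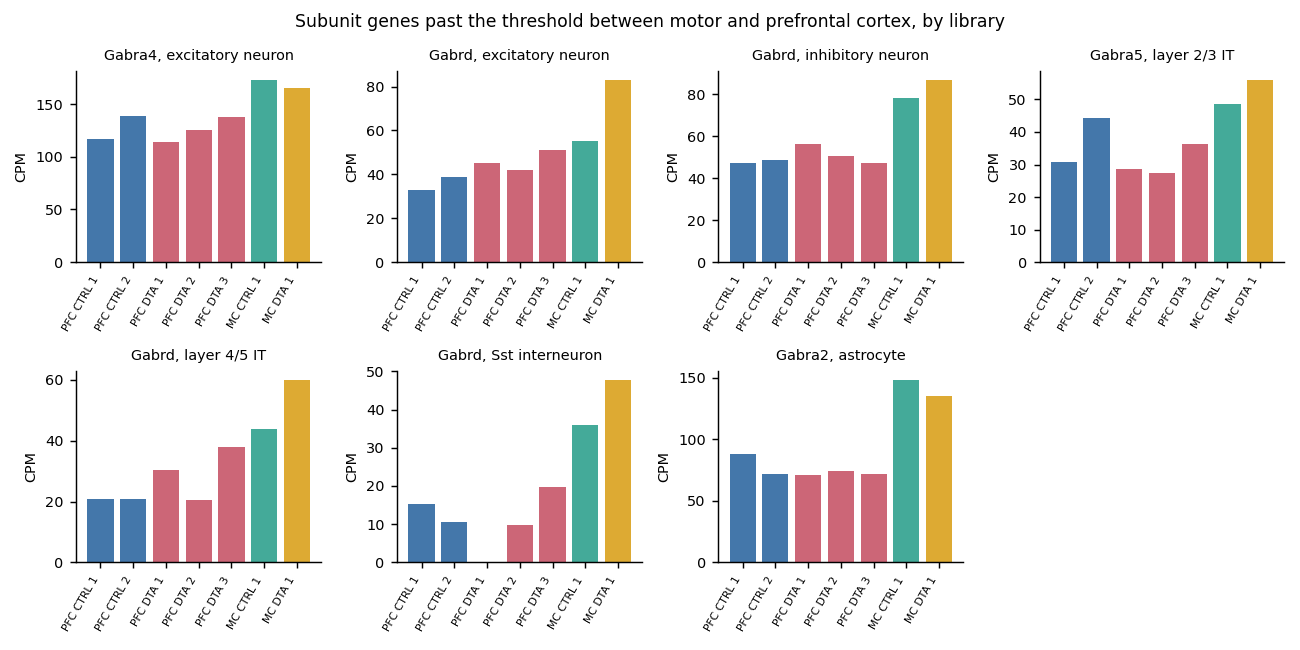
CPM (bars, from 0) in each library (horizontal axis) for the 7 contrasts in which a member passed the area test, 1 panel each, coloured by area and genotype. Both MC bars stand above all PFC bars in each panel, and MC DTA is the highest in the 4 Gabrd panels, at 83.1 CPM in excitatory neurons.

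Among the contrasts that did not pass, some were lower in the MC. Gabra2 in layer 2/3 IT neurons was at 176.0 against 231.6 CPM (-0.40, 95% interval -0.69 to -0.11, edgeR adjusted p = 0.0893). Gabrb1 was at 126.2 against 206.1 CPM in layer 6 CT neurons (-0.69, 95% interval -1.11 to -0.27, edgeR adjusted p = 0.114). Of the 89 contrasts, 25 had an unadjusted p under 0.05, where 11.3% of all contrasts did, and in 29 the areas did not overlap, where 18.3% of all did. The median log2 fold change was -0.01.

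Tests of the difference between area effects were chosen after these values had been seen. The area effect on Gabrd was larger in layer 4/5 IT than in layer 2/3 IT, where it was 0.32 and not called, by 0.77 (SE 0.18, edgeR adjusted p = 0.0077, with 5.66% of genes called), and that on Gabra5 was smaller by 0.67 on the log2 scale (-0.67, SE 0.17, edgeR adjusted p = 0.0115). The area effect on Gabra2 was larger in astrocytes than in excitatory neurons by 1.11 (SE 0.23, edgeR adjusted p = 0.0460, with 0.343% of genes called). For Gabrd, inhibitory and excitatory neurons did not differ in their area effect (0.03, 95% interval -0.31 to 0.36). Of 27 such tests 3 passed, against 0 without MC CTRL, 1 without PFC DTA replicate 2 and 1 with DESeq2.

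Of the related genes, all area calls were higher in the MC as well. The other GABA-A subunits passed in 7 of 74 contrasts, the partners and chloride transporters in 6 of 261 and the GABA-B receptor genes in 2 of 56. The counts for partners and GABA-B genes are near the 2.15% of all area contrasts that passed. Slc12a5, which encodes the chloride exporter KCC2, was higher in excitatory neurons (0.51), layer 2/3 IT (0.60) and Pvalb interneurons (0.68).

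Between genotypes in the PFC, 0 of 77 contrasts of the members passed the edgeR quasi-likelihood test with Benjamini-Hochberg adjustment, and DESeq2 called 0. Over all genes and cell types 0.000639% of contrasts passed. At an unadjusted p under 0.05 there were 9 of 77 contrasts, where 3.09% of all contrasts had such a p. In 20 of 77 the CTRL and DTA libraries did not overlap, as in 17% of all contrasts. Whether a change within a subtype, or one smaller than 2-fold, would have been found was not tested. Of the 3 lists of related genes, 0 of 65, 0 of 242 and 0 of 51 contrasts passed.

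Gabrd had the excitatory values given above, with all 3 PFC DTA libraries above both CTRL libraries (46.0 against 35.9 CPM, 0.40, 95% interval 0.07 to 0.73, edgeR adjusted p = 0.9998). It did not pass. In layer 2/3 IT neurons Gabrd was at 65.5 and 71.9 CPM in CTRL and 84.5, 87.4 and 83.7 in DTA (0.35, 95% interval 0.00 to 0.70). PFC DTA replicate 3, the library with many unnamed cells, had the highest excitatory value, and the fold change was 0.31 without it.

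Gabrb1 in inhibitory neurons was at 98.2 and 125.2 CPM in CTRL and 62.3, 88.9 and 66.4 in DTA, with the groups apart (-0.53, 95% interval -0.96 to -0.11, edgeR adjusted p = 0.9998). In Sst interneurons Gabrb1 was at 114.2 and 134.5 CPM in CTRL and 88.0, 87.2 and 44.7 in DTA (-0.83, 95% interval -1.40 to -0.25, edgeR adjusted p = 0.9994), and at -0.53 without PFC DTA replicate 3. Gabra2 in Sst interneurons was at 98.98 and 63.7 CPM in CTRL and 29.3, 38.1 and 53.7 in DTA (-0.84, 95% interval -1.48 to -0.19). Gabra4 there was at 71.1 and 88.5 CPM in CTRL and 29.3, 51.6 and 53.7 in DTA (-0.69, 95% interval -1.28 to -0.09). These 3 Sst values did not pass, and in each the libraries of the genotypes were apart. Sst cells numbered 36 and 296 in the CTRL libraries and 27, 77 and 58 in the DTA libraries. Those of PFC DTA replicate 1 held 102296 UMIs over all genes, so its values rest on few UMIs of each gene. Summed Sst-type markers moved in the same cells, at 22965 to 24252 CPM in CTRL and 18173 to 20449 in DTA, as did Pvalb-type markers, at 322.0 to 398.4 and 234.6 to 296.9. Summed excitatory markers in Sst cells were 43.1 to 212.3 CPM in CTRL and 68.4 to 137.7 in DTA, and in inhibitory neurons 54.9 to 317.5 and 68.3 to 144.0. Their part was not tested.

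In the MC there is 1 library per genotype and so no test, and the genotypes also differ in depth, at 6259.5 UMIs per excitatory neuron in CTRL and 16943.5 in DTA. Ratios carry 95% Poisson intervals that cover counting error only. Such an interval left out 0 for 4 members above and 1 below in excitatory neurons, where it did so for 37.4% of all genes. In inhibitory neurons 0 members lay above and 5 below, where 21.1% of all genes left out 0. Gabrd in excitatory neurons had a log2 ratio of DTA to CTRL of 0.62 (0.49 to 0.76), from 780 and 1004 UMIs. Gabra5 (-0.95, -1.42 to -0.50), Gabra2 (-0.66, -1.04 to -0.30) and Gabrb1 (-0.51, -0.82 to -0.22) had ratios below 0 in inhibitory neurons, and Gabra2 in Sst interneurons was at -1.41 (-2.35 to -0.53) from 38 and 16 UMIs. Gabra5, Gabra2 and Gabrb1 are higher in excitatory neurons, and summed excitatory markers in inhibitory neurons were 275.98 CPM in MC CTRL and 128.5 in MC DTA (in Sst interneurons 211.8 and 35.4). Lamp5 interneurons, the inhibitory subtype richest in Gabra5, held 90 of the 131 inhibitory Gabra5 UMIs of MC CTRL and 40 of the 61 of MC DTA. They made up 28.5% of inhibitory cells for MC CTRL but 21.3% for MC DTA. Within Lamp5 interneurons the Gabra5 ratio was -0.56 (-1.14 to -0.0086). The part of these markers and of the Lamp5 share in these ratios was not tested. The genotype effect was set between the areas in 78 contrasts of the members, and 0 passed (edgeR quasi-likelihood test, Benjamini-Hochberg, 1 with an unadjusted p under 0.05). With 1 MC library per genotype, that test called no gene at all in any cell type. The count therefore says nothing particular about the members.

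**Figure D5:**
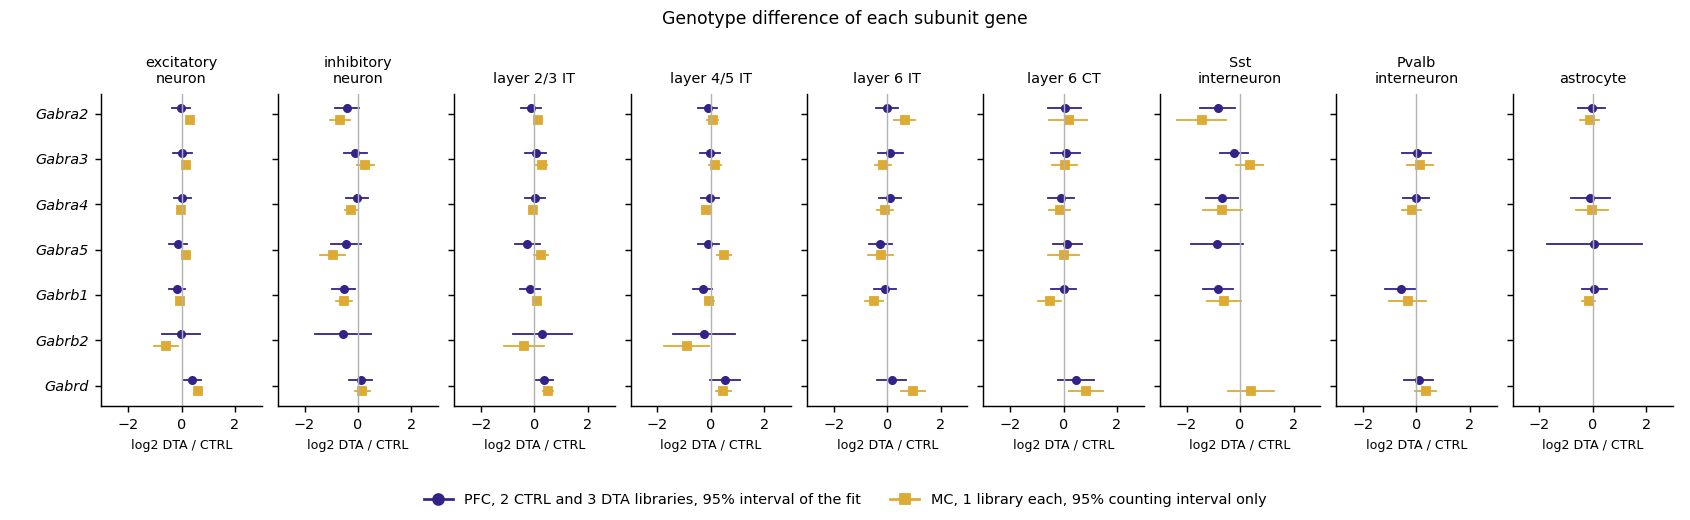
Log2 ratio of DTA to CTRL for the 7 genes (rows) in 9 cell types (panels), with the PFC fold change and its 95% interval as circles and the MC ratio of 1 library each and its counting interval as squares, drawn where both MC libraries have 10 or more UMIs. In the PFC no point passed the threshold, and Gabrd in excitatory neurons lay at 0.40 in the PFC and 0.62 in the MC.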

How the data were processed

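Droplet-based single-cell libraries were made from the PFC and MC with the 10x 3' V2 chemistry, per the labels. The deposited files hold whole UMI counts per gene and cell, and the submitters' processing notes name Cell Ranger 3.0.2, Seurat and mm10. The sources used here do not give the authors' cell filters. The 7 members and the 3 lists of related genes (12 other GABA-A subunits, 15 receptor partners and chloride transporters, 5 GABA-B receptor genes) were chosen with earlier results of these data known. All 7 members are named, and at most 4 genes with the smallest p per list and comparison. Some genes that this rule or the ranking of alike genes would name are not reported here.

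Cells were clustered with scanpy 1.11.5 and leidenalg 0.10.2 (10000 UMIs per cell, 2000 variable genes, 30 principal components, 20 neighbours, resolution 1.0) without 39 genes, the members and lists. Doublets called by Scrublet were removed, and in PFC DTA replicate 3, with 0 automatic calls, the top scores were taken instead. Clusters of at least 50 cells were named from marker genes (3 or more at 20 CPM and 2-fold), with naming thresholds set after the clusters were seen. Clusters that met no rule stayed unnamed.

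Counts were summed per library and cell type where at least 10 cells were present. Sums were tested with edgeR 4.0.16 in R 4.3.3 (robust quasi-likelihood test, filterByExpr with a minimum count of 10, TMM scaling), with Benjamini-Hochberg adjustment over all genes of a contrast and a threshold of 0.05. The genotype was tested in the 5 PFC libraries. The area was tested in all 7 with genotype as a term, and cell types were compared with the library as a block. The alternatives were RLE scaling, no filter, DESeq2 1.42.0, doublets kept, a resolution of 2.0, each library left out, a replicate block and a depth term. The contrasts between cell types of the area effect, those between areas of the genotype effect, the values within depth sets and the values by cluster were chosen after the data were seen.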

Additional observations from a re-analysis of the deposited data

Results flagged for a closer look

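The area effect on Gabra5 differed between layer 4/5 IT and layer 2/3 IT neurons by -0.67 on the log2 scale (SE 0.17, 95% interval -1.01 to -0.33, edgeR quasi-likelihood adjusted p = 0.0115). It was picked out because a test of the difference itself passed, as were the next 2 values. The area effect on Gabrd differed between the same subtypes by 0.77 (SE 0.18, 95% interval 0.40 to 1.13, edgeR adjusted p = 0.0077). The area effect on Gabra2 differed between astrocytes and excitatory neurons by 1.11 (SE 0.23, 95% interval 0.63 to 1.59, edgeR adjusted p = 0.0460). The Gabra5 and Gabrd calls were lost with DESeq2 and without MC CTRL, that of Gabra5 also without PFC DTA replicate 2 and that of Gabrd also without MC DTA. The Gabra2 call was lost in 6 of 7 runs that left out 1 library, with RLE scaling, with doublets kept and at a resolution of 2.0.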

How the results depend on the processing

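No value of a member changed sign while called in any alternative. The 7 area calls became 4 with DESeq2 and 0 to 7 when 1 library was left out, 0 of them held in every alternative, and 3 held in every alternative that kept all libraries. The 3 calls on differences between area effects became 1 with DESeq2 and 0 to 3 with 1 library left out. The cause was not tested, except that leaving out a library leaves fewer samples. Of the 6 calls between excitatory and inhibitory neurons 5 held in every alternative, as did 35 of 43 between subtypes and 47 of 47 between glial or vascular cells and excitatory neurons. The PFC genotype count was 0 in every alternative.

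The replicate numbers of the PFC groups form only 2 pairs, and the deviations of same-numbered libraries correlated at 0.129 and 0.0048 in excitatory neurons and at 0.138 and 0.072 in inhibitory neurons. With 2 CTRL libraries these deviations mirror each other, and the labels do not tie a number to a shared batch, so a pairing was not established. With the replicate number as a block the genotype count was 0 of 77. Gabrb2 was below the filter on low counts in inhibitory subtypes, and the MC has 2 libraries that differ in genotype and depth together.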
